A study of Saccharomyces cerevisiae with 30 samples.

Results

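The small subunit processome is the large nucleolar particle that folds, modifies and cuts the precursor of the 18S rRNA while the small (40S) ribosomal subunit is being built. The transcripts of 39 genes were followed, which encode proteins of this particle and close partners in 40S assembly. They were taken by name from a list that was drawn up with earlier results of these data known, as the genes of the deposited array table annotated to those names. All 39 were found among 5656 genes with a probe set of their own, and all 39 passed the filter on dim genes that left 4242 genes for testing.

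The study asked how the nucleotide excision repair factors Rad7 and Rad23 affect gene expression after ultraviolet (UV) damage. Rad7 belongs to a ubiquitin ligase that binds its partner through a motif called the SOCS box, and Rad23 is the partner of the damage recognition protein Rad4. Total RNA of 30 samples was measured on 30 Affymetrix Yeast S98 arrays, 1 sample per array. The haploid strain BY4742 without its own *RAD7* gene carried a pRS313 plasmid (*HIS3* marker) in every group, and the 4 strains were psocs rad23Δ (*RAD7* mutated in the SOCS box, *RAD23* replaced by *URA3*), pRAD7 rad23Δ (wild-type *RAD7*, *RAD23* replaced by *URA3*), psocs (mutated *RAD7*, *RAD23* intact) and pRAD7 (wild-type *RAD7*, *RAD23* intact). Each was sampled untreated and at 15 and 60 min after 100 J/m2 of UV at 254 nm, from cells in late log phase at 30°C in minimal medium without histidine. There were 3 arrays in each group of psocs and pRAD7 and 2 in each group of the rad23Δ strains, and no strain with a chromosomal *RAD7* gene was analysed here.

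Processome assembly begins while RNA polymerase I is still making the precursor. The UTP-A complex binds its 5′ leader first, the UTP-B complex and the U3 small nucleolar RNP follow, and the Mpp10 complex, the UTP-C complex, helicases, a GTPase and other factors join afterwards. Yeast transcribes the genes for these proteins together with those of the large subunit assembly factors and of RNA polymerase I, as the ribosome biogenesis regulon, and lowers the whole regulon under many kinds of stress.

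The labels held in the arrays, but the *RAD7* signal differed beyond what its label gives. *RAD23* read 1.26 to 4.40 in the 12 arrays of the rad23Δ strains, against 605 to 1572 in the other 18, and *URA3* read 241 to 614 against 0.762 to 9.78. The *RAD7* probe set read 17.4 to 54.2 in the 15 psocs plasmid arrays and 242 to 1167 in the 15 pRAD7 plasmid arrays. The paper describes the mutation as 2 amino acid substitutions, which by themselves do not imply a lower signal. Comparisons between the plasmids thus hold a difference in *RAD7* signal too, which cannot be told apart from the mutation. The *RAD7* signal was also lower in pRAD7 rad23Δ than in pRAD7, without overlap at any time. It read 315 and 422 untreated, 242 and 325 at 15 min and 280 and 391 at 60 min. In pRAD7 it read 526 to 924, 349 to 449 and 777 to 1167 in that order. With the psocs plasmid it was likewise lower in the rad23Δ strain at each time. Comparisons of rad23Δ strains with the others thus hold this difference too, which cannot be told apart from the deletion. Genes of α cells, the mating type of BY4742, had medians of 1998 to 10004 (4 genes), while those of a cells had 19.5 to 107 (6 genes). Of the 15 min arrays, 2 stood apart: the mean log2 signal of 25 general stress genes was 8.78 in pRAD7 rad23Δ replicate 2 and 8.86 in psocs rad23Δ replicate 1, against 10.2 to 10.8 in the other 8. Values at 15 min in the rad23Δ strains rest in part on these arrays. Fewer cells with a transcript and less of it per cell cannot be told apart in such bulk RNA.

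At 60 min after UV the processome transcripts were lower in every strain. In psocs rad23Δ 38 of the 39 genes were lower, in pRAD7 rad23Δ 31, in psocs 39 and in pRAD7 39, and none was higher (limma, adjusted p under 0.05 over all 4242 genes). Of all genes tested, 28.8%, 28.2%, 34% and 36.1% were lower in those strains, in the same order, and 31.2%, 32.6%, 30.8% and 28.7% were higher. The median log2 change of the 39 genes was -1.86 in psocs rad23Δ, -1.52 in pRAD7 rad23Δ, -2.27 in psocs and -2.13 in pRAD7, whereas the median over all genes lay between -0.11 and 0.08. In pRAD7 the median amounts to 4.37-fold, and 38 of the 39 fell at least 2-fold, as did 725 of all 4242 genes. After centring, the 3 treated and 3 untreated arrays of pRAD7 did not overlap for any of the 39, nor did those of psocs, as against 39.9% and 35% of all genes lower without overlap. The median log2 signal of the 39 genes was 6.87 and 7.46 at 60 min in psocs rad23Δ, 7.70 and 7.79 in pRAD7 rad23Δ, 6.43 to 6.99 in psocs and 6.73 to 7.29 in pRAD7, and every untreated array lay between 8.94 and 9.41.

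**Figure D1:**
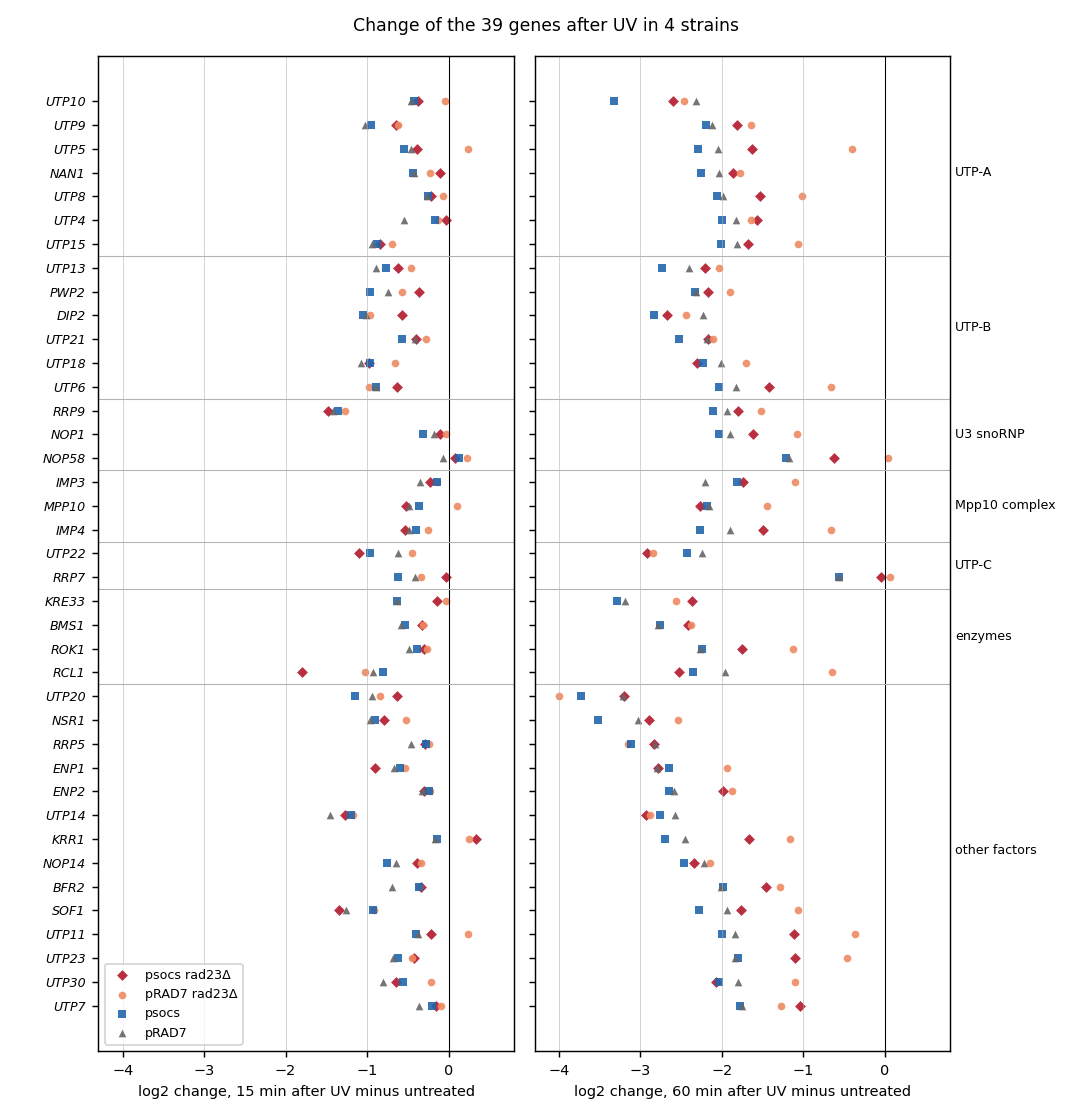
Log2 change of each of the 39 genes (rows, grouped by complex or role and ordered within it by the 60 min change in pRAD7) at 15 min (left) and 60 min (right) after UV relative to untreated cells of the same strain, with 1 symbol per strain. At 60 min nearly all symbols lie left of 0, the medians run from -1.52 in pRAD7 rad23Δ to -2.27 in psocs, and *RRP7* is nearest to 0 in psocs rad23Δ, psocs and pRAD7.

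The UTP-A genes (7), whose proteins bind the start of the precursor, were all lower at 60 min in psocs rad23Δ, psocs and pRAD7, and 6 were lower in pRAD7 rad23Δ. *UTP10*, which encodes the longest UTP-A protein, had signals of 273, 373 and 336 at 60 min in pRAD7, against 1260, 1448 and 1317 in untreated cells. That was a log2 change of -2.31 ± 0.26 (SE, adjusted p = 7.1e-08), with no overlap of the arrays. In psocs it changed by -3.32 ± 0.26, the largest difference of any of the 39 genes between psocs and pRAD7 (-1.01), which did not pass the test. *UTP15* had the smallest UTP-A change in pRAD7, with 153, 216 and 213 at 60 min and 511, 741 and 459 untreated (-1.81 ± 0.24, adjusted p = 9.3e-07). The exception in pRAD7 rad23Δ was *UTP5*, at 373 and 328 at 60 min and 260 and 1007 in untreated cells. Those arrays overlapped, the change of -0.40 ± 0.64 was not called (adjusted p = 0.60), and its untreated arrays also spread in psocs (226, 1062 and 979).

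The UTP-B genes (6) encode a scaffold of WD-repeat proteins and Utp6 that is loaded onto the leader next. All 6 were lower at 60 min in 3 strains and 5 in pRAD7 rad23Δ. *UTP13* had 172, 272 and 207 at 60 min in pRAD7 and 823, 997 and 989 in untreated cells, a change of -2.40 ± 0.21 (adjusted p = 1.7e-09). Across the 30 arrays *UTP13* also followed the median of the other genes most closely of the 39 (r = 0.99, as a description). *UTP6* had 84.2, 192 and 119 at 60 min in pRAD7 against 386, 464 and 270 untreated (-1.82 ± 0.30, adjusted p = 1.5e-05). In pRAD7 rad23Δ *UTP6* had 282 and 284 against 482 and 505, and that change of -0.66 ± 0.37 was not called (adjusted p = 0.13), although the arrays did not overlap.

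Of the U3 RNP genes (3), *RRP9* encodes the U3-specific protein, *NOP1* the methyltransferase fibrillarin and *NOP58* a core protein of all box C/D particles. *RRP9* had 188, 249 and 298 at 60 min in pRAD7 and 647, 963 and 712 in untreated cells (-1.94 ± 0.20, adjusted p = 2.7e-08). *NOP58*, read on its brightest probe set, had 4412, 5318 and 5411 against 8461, 9632 and 10274, the smallest change of these genes (-1.18 ± 0.18, adjusted p = 3.6e-06). *NOP1* fell by 1.90 on the log2 scale in pRAD7 and was lower in all 4 strains.

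In the Mpp10 complex (3 genes), Imp3 and Imp4 help the U3 RNA to pair with the precursor. *IMP3* had 108, 288 and 216 at 60 min in pRAD7, against 716, 865 and 606 in untreated cells (-2.21 ± 0.33, adjusted p = 3.5e-06). *IMP4* had 250, 270 and 273 against 734, 896 and 836 (-1.90 ± 0.25, adjusted p = 5.3e-07). *MPP10* fell by 2.16 on the log2 scale, so that the 3 genes of the complex lay close together in pRAD7.

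The UTP-C genes (2) differed from each other. *UTP22* and *RRP7* encode proteins that also occur with Ifh1, a coactivator of ribosomal protein genes. *UTP22* had 186 and 118 at 60 min in psocs rad23Δ (1076 and 1341 untreated), 112 and 117 in pRAD7 rad23Δ (724 and 1153), 212, 192 and 261 in psocs (924, 1003 and 1167) and 297, 188 and 300 in pRAD7 (1199, 1096 and 769). No 60 min array overlapped an untreated one, and the changes were -2.92, -2.85, -2.42 and -2.24 in that order, all called. *RRP7* had 425 and 333 at 60 min in psocs rad23Δ against 402 and 425 untreated, and 449 and 518 in pRAD7 rad23Δ against 561 and 469. Both pairs overlapped, and the changes of -0.04 ± 0.25 and 0.06 ± 0.25 were not called. In psocs it had 320, 415 and 399 against 540, 483 and 435, and in pRAD7 230, 462 and 423 against 407, 496 and 412. The deposited pRAD7 signals overlapped, and the centred ones did not. These changes, -0.57 ± 0.20 in both, were called (adjusted p = 0.017 in each), but the pRAD7 value was -0.26 without its 60 min replicate 1 (adjusted p = 0.21) and -0.51 without its untreated replicate 2, and then not called. Without centring neither was called (-0.37 in psocs and -0.30 in pRAD7). In psocs the call was lost without the untreated replicate 1 or the 60 min replicate 1 (-0.51 and -0.48). The difference between strains in the *RRP7* response did not pass the test either (0.63 ± 0.32 for pRAD7 rad23Δ minus pRAD7, adjusted p = 0.14). *RRP7* also followed the other genes least over the 30 arrays (r = 0.50, against a median of 0.95).

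Among the enzymes, Kre33 acetylates the 18S rRNA, Bms1 is a GTPase, Rcl1 is its partner and Rok1 is a DEAD-box helicase that helps to release the guide RNA snR30. *KRE33* had 33.1, 48.0 and 43.5 at 60 min in pRAD7, against 430, 284 and 246 in untreated cells (-3.19 ± 0.25, adjusted p = 5.3e-10). *RCL1* had 93.3, 120 and 138 against 324, 640 and 253 (-1.96 ± 0.60, adjusted p = 0.0061). *RCL1* had the largest standard error of the 39 genes, and in pRAD7 rad23Δ its 205 and 145 against 310 and 287 were not called (-0.65 ± 0.73, adjusted p = 0.46). *BMS1* fell by 2.78 and *ROK1* by 2.27 on the log2 scale in pRAD7.

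The other 14 factors were all lower at 60 min in psocs rad23Δ, psocs and pRAD7, and 12 were lower in pRAD7 rad23Δ. *UTP20*, which encodes a very long HEAT-repeat protein, changed most of the 39 genes in all 4 strains. It had 75.1 and 36.5 at 60 min in psocs rad23Δ against 534 and 499 untreated, 48.0 and 35.5 in pRAD7 rad23Δ against 877 and 613, 48.5, 62.4 and 57.4 in psocs against 689, 601 and 647, and 60.2, 102 and 83.3 in pRAD7 against 645, 522 and 690. The log2 changes were -3.21 ± 0.31, -4.0 ± 0.31, -3.73 ± 0.26 and -3.21 ± 0.26 in that order, and in pRAD7 rad23Δ no gene of the 4242 had a lower value. *NSR1*, the yeast nucleolin, fell by 3.03 in pRAD7, *RRP5*, which is needed for both subunits, by 2.83, and *ENP1*, a factor that stays with the 40S precursor on its way to the cytoplasm, by 2.79. *UTP7* had the smallest change of this group, with 159, 174 and 150 against 445, 511 and 401 (-1.75 ± 0.30, adjusted p = 2e-05).

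At 15 min fewer of the genes had changed. In psocs rad23Δ 5 of the 39 were lower, in pRAD7 rad23Δ 3, in psocs 17 and in pRAD7 16, against 6.67%, 5.92%, 12.3% and 14.2% of all genes in the same order. None was higher, where 10.2%, 8.84%, 21.5% and 23.2% of all genes were. The 3 genes in pRAD7 rad23Δ are 7.69% of the 39, close to that background. The medians were -0.39, -0.31, -0.57 and -0.63, and without single arrays they ranged over -0.64 to -0.14, -0.46 to -0.20, -0.74 to -0.43 and -0.83 to -0.41. In psocs and pRAD7 13 genes were lower in both (*UTP9*, *UTP15*, *PWP2*, *DIP2*, *UTP6*, *UTP13*, *UTP18*, *RRP9*, *UTP14*, *UTP20*, *UTP23*, *SOF1* and *NSR1*). By complex, the genes lower in psocs and in pRAD7 were 2 and 2 of 7 in UTP-A, 6 and 5 of 6 in UTP-B, 1 and 1 of 3 in the U3 RNP, 0 and 0 of 3 in the Mpp10 complex and 2 and 0 of 2 in UTP-C, and differences between complexes were not tested. Within UTP-B, *UTP6* lost its call in 4 of the 6 fits without single arrays in each strain, *UTP21* in 5 in psocs and *PWP2* in 3 in pRAD7. These counts depend on single arrays: in psocs 8 genes were lower without the 15 min replicate 1, and in pRAD7 9 were without the 15 min replicate 1, 26 without replicate 2 and 10 without replicate 3. In the rad23Δ strains, leaving out both arrays with low stress genes gave 12 lower genes in psocs rad23Δ and 4 in pRAD7 rad23Δ, but each 15 min group is then 1 array that is assumed to vary like the other groups. The 3′ to 5′ signal ratio of *SRB4*, a control for RNA quality, was 4.46 to 5.64 at 15 min and 3.13 to 3.35 untreated in psocs, and 4.21 to 5.38 at 15 min and 3.08 to 3.33 untreated in pRAD7. That of *ACT1* was 1.23 to 1.36 against 1.11 to 1.19 in psocs and 1.28 to 1.32 against 1.16 to 1.21 in pRAD7. Neither of these ratios overlapped between these groups. The ratio of *SPT15*, a further control of this kind, did overlap in both strains. It was 2.79 to 3.51 at 15 min and 2.36 to 3.46 untreated in psocs. In pRAD7 it was 3.01 to 3.81 at 15 min and 2.13 to 3.36 untreated. The part of these ratios in the 15 min changes was not tested.

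*RRP9* and *UTP14*, whose product activates the helicase that removes U3 from the precursor, were lower at 15 min in all 4 strains. *RRP9* had 268 and 227 at 15 min in psocs rad23Δ (683 and 844 untreated), 346 and 322 in pRAD7 rad23Δ (887 and 929), 225, 366 and 271 in psocs (693, 890 and 741) and 220, 329 and 252 in pRAD7 (647, 963 and 712). No 15 min array overlapped an untreated one. The changes were -1.48 ± 0.25, -1.27 ± 0.25, -1.36 ± 0.20 and -1.42 ± 0.20 (adjusted p = 0.0003, 0.0013, 1.9e-05 and 1e-05). From 15 to 60 min *RRP9* changed further by -0.32 in psocs rad23Δ and -0.25 in pRAD7 rad23Δ, which were not called, and by -0.75 in psocs and -0.52 in pRAD7, which were. The pRAD7 call was lost in 4 of 6 fits without single arrays (-0.34 without the 15 min replicate 2, -0.55 without its replicate 3, -0.35 without the 60 min replicate 1 and -0.53 without its replicate 2), with quantile normalization (-0.46) and in a fit to only the arrays compared, and without centring the changes were -0.46 in psocs and -0.13 in pRAD7, neither called. *UTP14* changed by -1.27, -1.17, -1.20 and -1.45 at 15 min and by -2.93, -2.88, -2.76 and -2.58 at 60 min. Its 15 min call was lost in pRAD7 rad23Δ without the untreated replicate 1 (-1.06) and in psocs rad23Δ without the 15 min replicate 2 (-0.90) or the untreated replicate 2 (-1.14). The calls of both genes in pRAD7 rad23Δ, and that of *UTP14* in psocs rad23Δ, were also lost in a fit to only the arrays compared.

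Most of the fall came between 15 and 60 min, which is also the longer interval, so this alone does not show a late onset. Between these times 31 genes were lower in psocs rad23Δ, 26 in pRAD7 rad23Δ, 38 in psocs and 37 in pRAD7, against 24.3%, 24%, 32.1% and 33.3% of all genes. None was higher, where 19.5%, 20.5%, 22.2% and 19% of all genes were. The median gene had reached 22.7% of its 60 min log2 change by 15 min in psocs and 27.9% in pRAD7. *KRR1*, which encodes a KH-domain protein of the particle, is an example of a late change. At 15 min in pRAD7 it had 515, 803 and 601 against 771, 657 and 874 in untreated cells, overlapping and not called (-0.16 ± 0.29), and at 60 min it had 115, 267 and 154 (-2.45 ± 0.29, adjusted p = 1.5e-07).

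**Figure D2:**
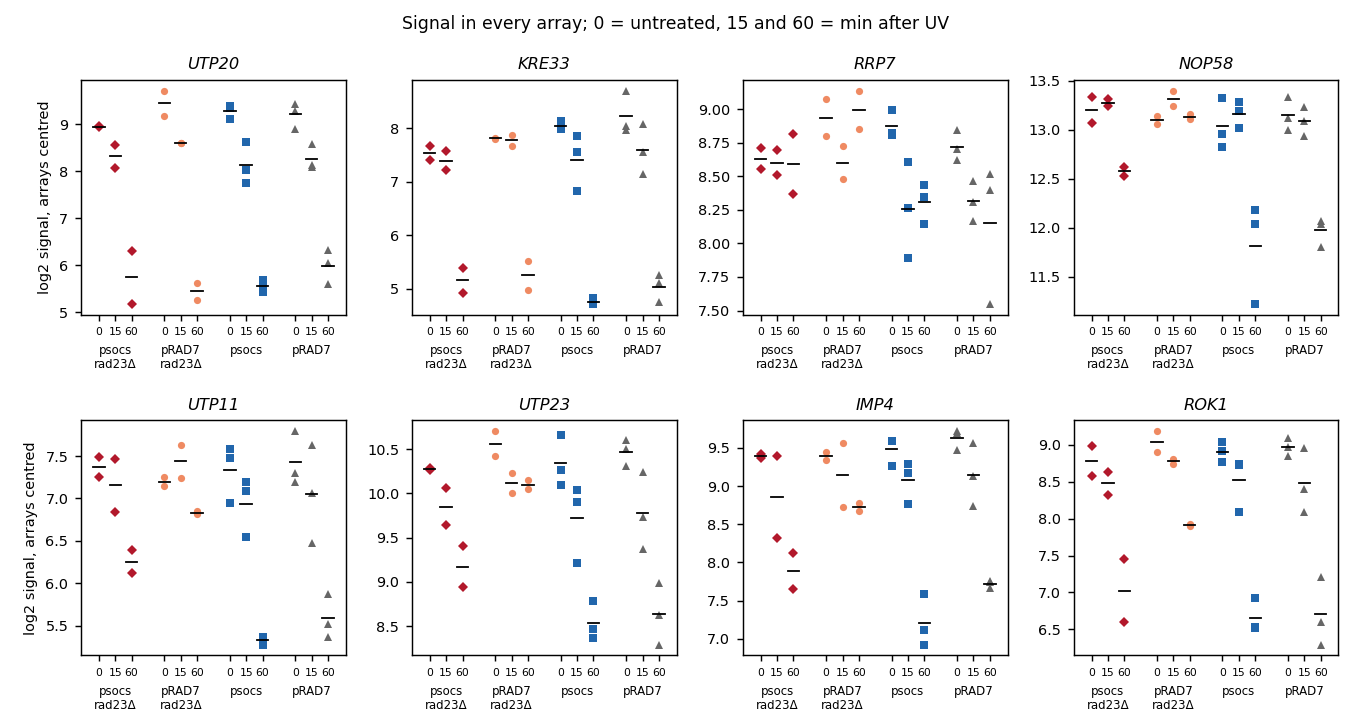
Log2 signal (arrays centred on a common median) of 8 of the genes in each of the 30 arrays, with 1 symbol per array and a bar at the group mean, for each strain untreated (0) and at 15 and 60 min after UV. *UTP20* and *KRE33* fall in all strains, *RRP7* shows no fall at 60 min in the rad23Δ strains, and for *NOP58*, *UTP11*, *UTP23*, *IMP4* and *ROK1* the 2 arrays of pRAD7 rad23Δ at 60 min lie above all 6 of psocs and pRAD7. The last-named genes were among those called for pRAD7 rad23Δ minus pRAD7, so their separation is no further support.

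Before UV no difference between the strains was called for these genes. None of the 39 was called in any of the 5 comparisons of untreated strains (limma), and at an unadjusted p under 0.05 there was 1 gene for psocs rad23Δ minus pRAD7 and 0 in the other 4. Of all 4242 genes, 532 were under that level for psocs rad23Δ minus pRAD7 and 61 to 693 in the other 4. The medians of the differences ranged from -0.24 (psocs rad23Δ minus pRAD7 rad23Δ) to 0.03 (pRAD7 rad23Δ minus pRAD7). Of all genes, 0.306% were lower and 0.212% higher for psocs rad23Δ minus pRAD7, 0.0471% and 0.0471% for psocs rad23Δ minus pRAD7 rad23Δ, 0.542% and 0.495% for psocs rad23Δ minus psocs, 0.566% and 0.636% for pRAD7 rad23Δ minus pRAD7, and 0.0236% and 0% for psocs minus pRAD7.

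The difference between UV responses was tested as an interaction, in which the change of one strain is subtracted from that of another. At 15 min none of the 39 genes was called in any of the 5 comparisons, none had an unadjusted p under 0.05, and no gene of all 4242 was called. Of all 4242 genes, 37 to 221 had an unadjusted p under 0.05 in these comparisons. At 60 min no difference between the psocs and pRAD7 plasmids, which also differed in *RAD7* signal, was called. For psocs minus pRAD7 the median was -0.18, with 32 of 39 genes below 0. Over all 4242 genes the median was 0.06, with 1558 below 0. At an unadjusted p under 0.05 there was 1 of the 39 genes, against 35 of all 4242. For psocs rad23Δ minus pRAD7 rad23Δ the median was -0.28, with 34 below 0. Over all 4242 genes it was -0.03, with 2254 below 0. At an unadjusted p under 0.05 there were 2 of the 39 genes, against 481 of all 4242. The median 95% interval of a single gene reached 0.74 to either side in the first comparison and 0.90 in the second, so that differences of that size could go undetected. Of all genes, 0% were called in either direction in the first and 0.0707% lower and 0.165% higher in the second.

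With the wild-type *RAD7* plasmid, the *RAD23* deletion went with a smaller fall of some genes, and the *RAD7* signal differed between these strains too. For pRAD7 rad23Δ minus pRAD7 the median difference at 60 min was 0.63, and 33 of the 39 genes were above 0. Over all 4242 genes the median was 0.15, with 2495 above 0. Of the 39 genes 8 were called, all of them with the smaller fall in pRAD7 rad23Δ. That is 20.5% of the 39, and 18.6% of all 4242 genes were called in this direction and 11.4% in the other, so the count is near the background and is no result about the 39 genes as a group. For psocs rad23Δ minus psocs the median was 0.43 (0.14 without centring) with 32 above 0. Over all 4242 genes it was 0.08 after centring, with 2368 above 0. None of the 39 was called, where 5.14% of all genes were called higher and 4.24% lower. At an unadjusted p under 0.05 there were 4 of the 39, against 1034 of all 4242 genes. For psocs rad23Δ minus pRAD7 the median was 0.19, but turned to -0.17 without centring. None was called, where 7.5% of all genes were called higher and 3.77% lower. At an unadjusted p under 0.05 there was 1 of the 39, against 1068 of all 4242 genes. The first and the third of these comparisons share the pRAD7 arrays, and the second and the third those of psocs rad23Δ. Of the 4 strains, pRAD7 rad23Δ had the smallest fall for 30 of the 39 genes after centring and psocs the largest for 24. These counts depend on the centring. Without it the 60 min changes shift by -0.09 in psocs rad23Δ, -0.15 in pRAD7 rad23Δ, 0.20 in psocs and 0.27 in pRAD7. The share of all genes with this order was not determined, so the counts are no result about the 39 genes.

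The 8 genes came from UTP-A (1), the U3 RNP (2), the Mpp10 complex (1), the enzymes (1) and the other factors (3). *UTP11*, which encodes a small protein of the particle, had 112 and 104 at 60 min in pRAD7 rad23Δ against 147 and 160 untreated, while in pRAD7 it had 51.0, 74.0 and 57.7 against 151, 240 and 156. The difference was 1.48 ± 0.39 (adjusted p = 0.0065). *UTP23*, which encodes a PIN-domain protein that works with snR30, had 1027 and 1047 at 60 min in pRAD7 rad23Δ (1737 and 1443 untreated) and 386, 642 and 494 in pRAD7 (1309, 1573 and 1536), a difference of 1.37 ± 0.36 (adjusted p = 0.0064). For both genes the 60 min arrays of the strains did not overlap, which is no further support, since the test on these arrays picked them. Neither fall in pRAD7 rad23Δ was called on its own.

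*KRR1* had 343 and 365 at 60 min in pRAD7 rad23Δ against 1161 and 665 untreated (1.29 ± 0.46, adjusted p = 0.037, for the difference from the pRAD7 response). *IMP4* had 427 and 377 against 725 and 687 (1.24 ± 0.39, adjusted p = 0.019). *ROK1* had 236 and 220 against 605 and 502 (1.14 ± 0.39, adjusted p = 0.028), where pRAD7 had 96.8, 187 and 122 at 60 min and 519, 498 and 541 untreated. The other called genes were *UTP8* (0.98 ± 0.37, adjusted p = 0.046), *NOP1* (0.82 ± 0.28, adjusted p = 0.032) and *NOP58* (1.22 ± 0.28, adjusted p = 0.0023). In psocs rad23Δ the same genes changed by -1.50 (*IMP4*), -1.12 (*UTP11*), -1.10 (*UTP23*), -1.67 (*KRR1*), -1.75 (*ROK1*), -1.53 (*UTP8*), -1.61 (*NOP1*) and -0.62 (*NOP58*), all called. The *NOP58* call in psocs rad23Δ was lost with quantile normalization (-0.45), without the untreated replicate 2 (-0.49) and without the 60 min replicate 1 (-0.58).

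The calls in this comparison depended on single arrays and on the scaling. Leaving out each of the 10 arrays in turn gave 3 to 11 called genes. *UTP11*, *UTP23* and *NOP58* stayed called in all 10 fits, *IMP4* lost its call in 2, *NOP1* and *ROK1* in 6, *KRR1* in 7 and *UTP8* in 9, with adjusted p up to 0.21 (*KRR1*) and no change of direction. Without centring the arrays, every gene's difference was lower by 0.42, because the array medians had moved by -0.15 at 60 min in pRAD7 rad23Δ and by 0.27 in pRAD7. Then 3 genes had a smaller fall in pRAD7 rad23Δ (*NOP58*, *UTP11* and *UTP23*) and 2 a larger one (*UTP20* by -1.21 and *UTP22* by -1.03), and of all genes 296 were called higher and 1106 lower, as against 789 and 485 after centring. With quantile normalization 5 genes were called, all with a smaller fall (*IMP4*, *KRR1*, *ROK1*, *UTP11* and *UTP23*), beside 454 higher and 694 lower of all genes. *UTP11* and *UTP23* were called under each of these scalings.

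The array holds several probe sets for 3 of the genes (10 for *UTP20*, 6 for *UTP22* and 4 for *NOP58*), and 1 for each of the other 36. For *NOP58* they disagreed. The tested set, whose name marks probes shared between transcripts, changed by 0.04 at 60 min in pRAD7 rad23Δ and a second bright set by -0.07, while the other 2 sets changed by -1.79 and -2.07. In psocs rad23Δ the 4 sets changed by -0.62, -0.81, -2.03 and -2.58. In pRAD7 the 4 sets changed by -1.18, -1.32, -1.83 and -1.94 in the same order. With the mean of the 4 sets the *NOP58* difference between the responses was 0.59 and was not called (adjusted p = 0.25), so its call rests on the choice of probe set. For *UTP20* the 4 brightest sets changed by -2.71 to -4.0 at 60 min in pRAD7 rad23Δ and by -2.40 to -3.21 in pRAD7. In the order of brightness they changed by -3.21, -4.49, -3.62 and -4.93 in psocs rad23Δ and by -4.0, -3.09, -3.10 and -2.71 in pRAD7 rad23Δ. Only the tested set, the brightest, thus fell more in pRAD7 rad23Δ than in psocs rad23Δ. In pRAD7 they changed by -3.21, -3.0, -3.17 and -2.40. The larger *UTP20* fall called without centring used the tested set alone. A further 4 dim sets lay under the floor of 8.50 in 14 to 19 of the 30 arrays. For *UTP22*, 5 of the 6 sets had changes of -1.45 or lower in all strains, and its dimmest set changed by -1.74 in psocs rad23Δ, 0.53 in pRAD7 rad23Δ, -1.01 in psocs and -0.93 in pRAD7. Several of the dimmer *UTP22* and *UTP20* sets had also changed more at 15 min than the tested ones, for example one *UTP22* set by -3.23 in pRAD7, where the tested set changed by -0.63.

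**Figure D3:**
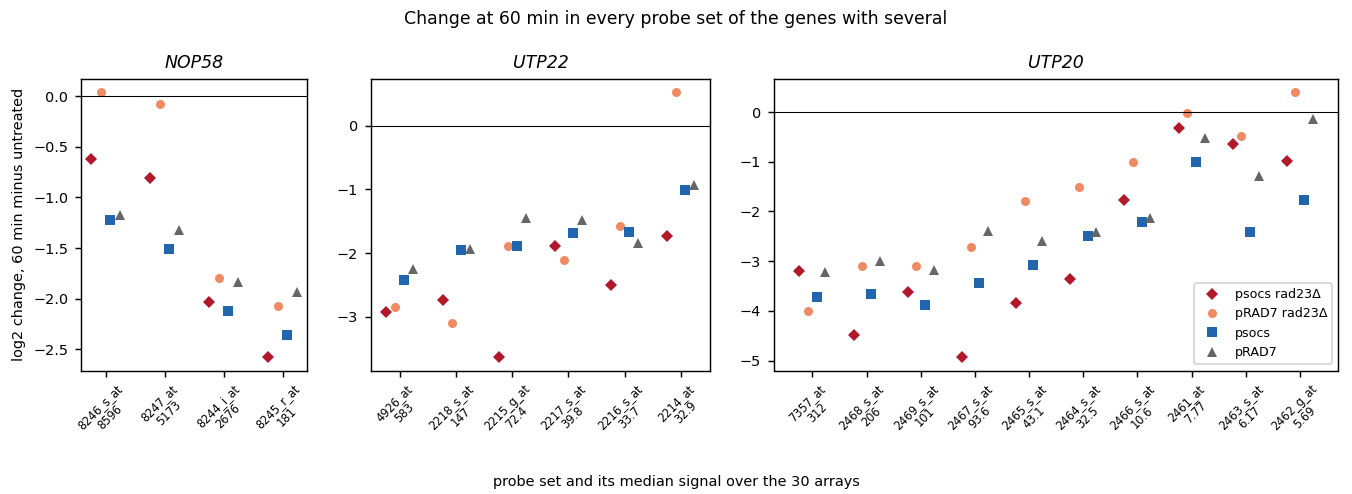
Log2 change at 60 min after UV in every probe set of *NOP58*, *UTP22* and *UTP20*, from the brightest set (the tested one, left in each panel) to the dimmest, with the median signal over the 30 arrays under its name and 1 symbol per strain. The 2 bright *NOP58* sets are near 0 in pRAD7 rad23Δ (0.04 and -0.07) where the other 2 are at -1.79 and -2.07.

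The size of the fall at 60 min went with the length of the coding sequence, which is 552 bases for *IMP3* and 7482 bases for *UTP20*. The correlation of the 60 min change with log2 coding length over the 39 genes was -0.61 in psocs rad23Δ, -0.80 in pRAD7 rad23Δ, -0.62 in psocs and -0.53 in pRAD7 (Spearman's rho -0.62, -0.78, -0.63 and -0.58). These are descriptions over genes that share the same arrays and are not independent replicates. Without *UTP20* and *IMP3*, the genes of the most extreme length, the values were -0.58, -0.78, -0.54 and -0.50. Over the other 4203 genes they were -0.34, -0.46, -0.13 and -0.12, so longer genes also had the lower values outside the processome, above all in the rad23Δ strains. At 15 min the values over the 39 genes were -0.04, -0.15, -0.25 and -0.15, against -0.31, -0.32, -0.29 and -0.29 over the other genes.

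In pRAD7 rad23Δ the 13 longest genes (2433 to 7482 bases) had a median change of -2.44 and all 13 were lower, the middle 13 a median of -1.29 with 11 lower, and the 13 shortest (552 to 1470 bases) a median of -1.07 with 7 lower. In pRAD7 the same 3 sets had medians of -2.32, -2.02 and -1.90, with all genes lower in each. Other genes in these length ranges had medians of -0.98, -0.17 and 0.32 in pRAD7 rad23Δ and of -0.41, -0.18 and -0.01 in pRAD7. The difference between both responses was 0.07 at the median of the longest, 0.72 of the middle and 1.11 of the shortest genes, and 0, 3 and 5 of them were called. For other genes in these length ranges the medians of this difference were -0.61, -0.02 and 0.29. The share of other genes called was not determined by length, so the counts by length are no result about the 39 genes. The correlation of this difference with length was -0.78 over the 39 genes and -0.47 over the other 4203. With the psocs plasmid, for psocs rad23Δ minus psocs, the correlation was -0.13 over the 39 genes and -0.44 over the others. The medians of the 3 sets were 0.34, 0.49 and 0.52, and none was called. Other genes in these length ranges had medians of -0.37, -0.04 and 0.16. Single 60 min arrays were also set against the untreated arrays of their strain. Those of pRAD7 rad23Δ gave -0.78 and -0.80, those of psocs rad23Δ -0.51 and -0.63, those of psocs -0.60 to -0.56 and those of pRAD7 -0.59 to -0.36. Arrays of a strain share its untreated arrays here, so these values are not independent. Both genes called under every scaling, *UTP11* (753 bases) and *UTP23* (765 bases), are among the 13 shortest. *NSR1* (1245 bases) was an exception to the relation, with changes of -2.89, -2.54, -3.52 and -3.03 in psocs rad23Δ, pRAD7 rad23Δ, psocs and pRAD7.

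**Figure D4:**
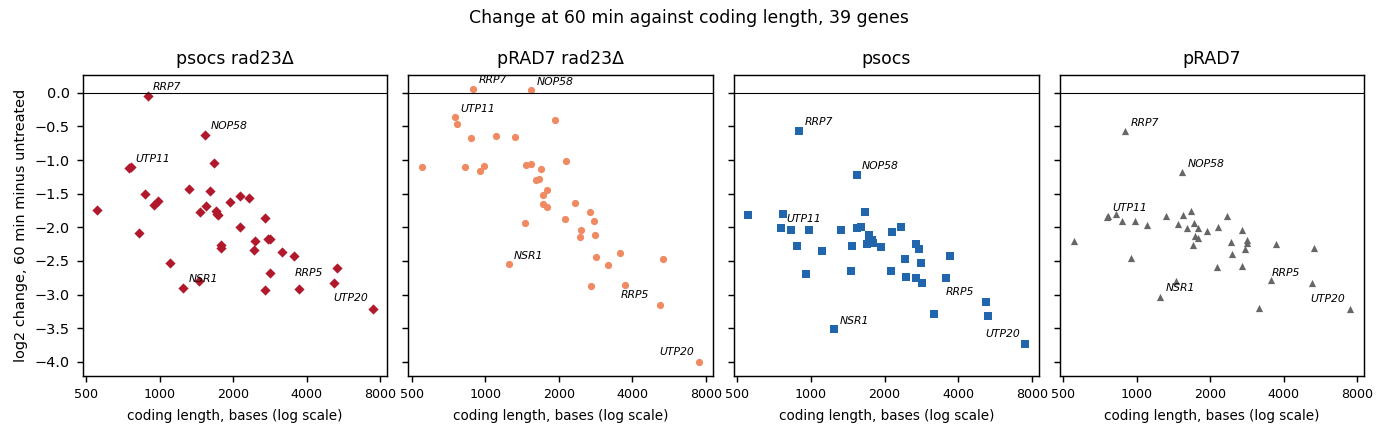
Log2 change at 60 min after UV of each of the 39 genes against the length of its coding sequence in bases (log axis), with 1 panel per strain and selected genes named. The correlation is strongest in pRAD7 rad23Δ (r = -0.80) and weakest in pRAD7 (r = -0.53).

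Other values moved with the same arrays. A control probe set for the 18S rRNA read 125 to 337 in the 10 untreated arrays. At 60 min it read 2761 and 3770 in psocs rad23Δ and 3903 and 4356 in pRAD7 rad23Δ, against 678 to 1232 in psocs and 478 to 918 in pRAD7. At 15 min it read 2076 and 2509 in psocs rad23Δ, 2443 and 2999 in pRAD7 rad23Δ, 1501 to 2559 in psocs and 940 to 2448 in pRAD7. In psocs and pRAD7 every 15 min array was thus above every 60 min array, and in both rad23Δ strains below. A control probe set for the 25S rRNA did not follow this. It read 144 to 876 in the untreated arrays. At 60 min it read 698 and 1223 in psocs rad23Δ, 590 and 817 in pRAD7 rad23Δ, 395 to 838 in psocs and 329 to 556 in pRAD7. All but the value of 1223 lay within the untreated range. The 25 stress genes, all of which were called higher at 60 min in pRAD7, had a mean log2 signal of 11.8 and 11.9 in psocs rad23Δ, 10.97 and 11.003 in pRAD7 rad23Δ, 11.5 to 11.8 in psocs and 11.3 to 11.6 in pRAD7. In psocs the 60 min replicate 1 had 3′ to 5′ signal ratios of 9.67 for *SPT15* and 0.773 for *ACT1*, outside the range of the other arrays. Some of these ratios also differed between pRAD7 rad23Δ and pRAD7. Untreated, *SRB4* had 4.70 and 4.88 against 3.08 to 3.33, and *SPT15* 3.47 and 3.63 against 2.13 to 3.36. At 60 min *ACT1* had 1.293 and 1.294 against 1.13 to 1.26. Untreated *ACT1* and 60 min *SRB4* and *SPT15* overlapped. *SRB4* had 5.17 and 5.27 at 60 min in psocs rad23Δ, against 2.42 to 3.74 in psocs. The part of these in the results on the processome genes was not tested.

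**Figure D5:**
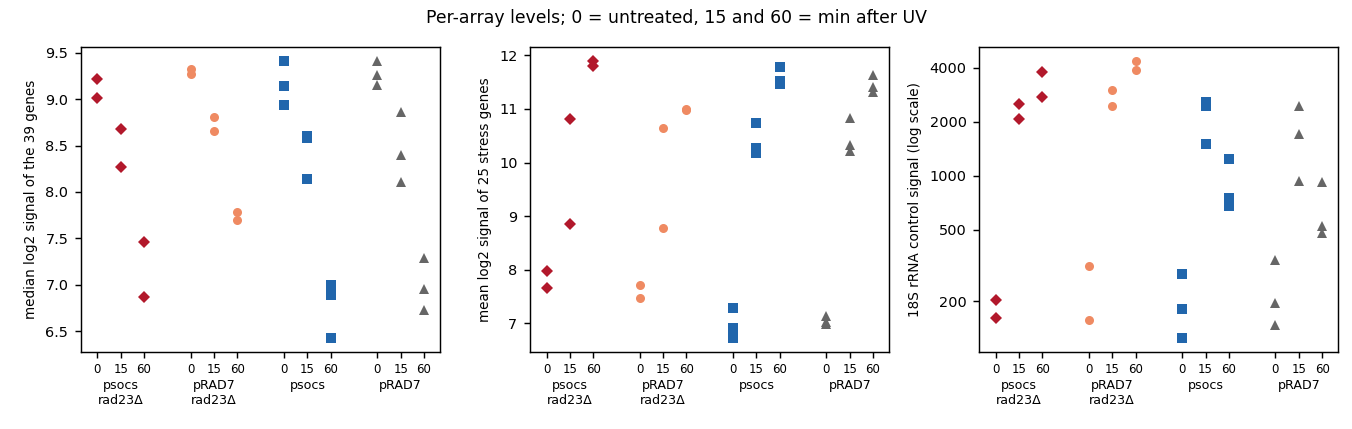
Median log2 signal of the 39 genes (left), mean log2 signal of 25 stress genes (middle) and signal of an 18S rRNA control probe set on a log axis (right) in each of the 30 arrays, untreated (0) and at 15 and 60 min after UV. The 39 genes lie highest at 60 min in pRAD7 rad23Δ (7.70 and 7.79), where the 18S rRNA signal is also highest (3903 and 4356), while in psocs and pRAD7 that signal is higher at 15 min than at 60 min. A 25S rRNA control, which is not drawn, read 590 and 817 at 60 min in pRAD7 rad23Δ and 698 and 1223 in psocs rad23Δ.

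Other genes of ribosome synthesis, in lists written from general knowledge but with earlier results of these data known, were also mostly lower at 60 min. Of 47 further processome and 40S assembly genes that were tested, 36 were lower at 60 min in psocs rad23Δ, 31 in pRAD7 rad23Δ, 43 in psocs and 43 in pRAD7, with medians of -1.37, -0.89, -1.68 and -1.54. Of 70 genes for assembly of the large (60S) subunit, 68, 63, 69 and 70 were lower in that order, with medians of -1.95, -1.52, -2.48 and -2.27. All 7 genes of RNA polymerase I subunits, which make the rRNA precursor, were lower in all 4 strains (medians -2.04, -1.66, -2.47 and -2.04). The genes for the proteins of the small subunit itself changed less: of 33 that were tested, out of 56 listed, 22, 16, 33 and 33 were lower, with medians of -0.69, -0.34, -1.19 and -1.24, and at 15 min 1 of them was lower in each strain. In pRAD7 rad23Δ all of these lists had smaller medians after centring than in the other strains, as the 39 genes had. This order depends on the centring. For RNA polymerase I the median difference between the responses of pRAD7 rad23Δ and pRAD7 was 0.39, and without centring such differences shift by -0.42.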

How the data were processed

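Total RNA of 30 yeast samples was hybridised to Affymetrix Yeast S98 arrays, 1 array per sample. The authors scaled each array with the MAS 5.0 method, and the deposited values are linear signal intensities (their trimmed mean, over the central 96% of probe sets, was 500.3 to 500.5). The version of that software is not given in the sources used here. The floor, the 10th percentile of the 9275 non-control values (8.50), was set before log2, and arrays were centred on a common median (their medians were 6.81 to 7.28). Of 9335 probe sets, 6504 carried 1 gene name, 328 several, which were not used, and 2443 none. The probe set of highest mean stood for each of 5656 genes, and genes under the 25th percentile of mean log2 signal (6.53) were left out, leaving 4242.

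All 30 arrays in 12 groups entered 1 linear model (limma 3.58.1, R 4.3.3, eBayes with a trend) with 27 comparisons, and p-values were adjusted by Benjamini-Hochberg within each over all 4242 genes. Calls were made where the adjusted p was under 0.05. The signs ± give standard errors of the model, and changes are on the log2 scale after the floor, which understates changes of dim genes. The script was tested on simulated data. Coding lengths came from the RefSeq annotation of the R64 assembly. Plots used Python 3.11.15 and matplotlib 3.10.9. The alternatives tried were other filters, no floor, no centring, quantile normalization, a replicate block, the mean of all probe sets, eBayes without a trend, fits to only the arrays compared and leaving out each array. After the data were seen, leaving out the 2 arrays with low stress genes was added.

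The 39 genes, their role groups and the other lists were chosen with earlier results of these data known. Values in every array are given for the genes with the largest and the smallest 60 min change in pRAD7 in each role group, and for up to 6 genes called in a comparison of strains. *UTP14*, *UTP5*, *UTP8*, *NOP1*, *NSR1*, *MPP10*, *BMS1*, *RRP5* and *ENP1* were named in addition, after their values were seen. Promoters were to be shown but are not used here. The labels call the replicates biological without saying whether they were separate cultures, so the p-values rest on the spread among these samples alone, which may be technical. The number of arrays, 2 or 3 per group, limits the precision.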

Additional observations from a re-analysis of the deposited data

Results flagged for a closer look

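Between pRAD7 rad23Δ and pRAD7 the change at 60 min after UV differed for 8 of the 39 genes by a test of the difference itself (limma, 2 and 3 arrays per group). The log2 differences, pRAD7 rad23Δ minus pRAD7, were 1.48 for *UTP11*, 1.37 for *UTP23*, 1.29 for *KRR1*, 1.24 for *IMP4*, 1.22 for *NOP58*, 1.14 for *ROK1*, 0.98 for *UTP8* and 0.82 for *NOP1*. All 8 had the smaller fall in pRAD7 rad23Δ. Among all 4242 genes 18.6% were called in the same direction.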

How the results depend on the processing

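No call reversed its direction under any alternative. Of the medians, 8 of 251 moved by more than the spread between arrays, as did 11 of 185 without single arrays. For psocs rad23Δ minus psocs at 60 min the median (0.43) was 0.14 without the 60 min replicate 1 of psocs rad23Δ and 0.71 without its replicate 2. At 60 min, leaving out each array in turn gave 34 to 36 lower genes in psocs rad23Δ, 28 to 31 in pRAD7 rad23Δ, 38 to 39 in psocs and 38 to 39 in pRAD7. At 15 min the counts moved more. In psocs rad23Δ (5) the count was 1 in a fit to only the arrays compared, 1 to 12 without single arrays, and 12 without both arrays with low stress genes. In pRAD7 rad23Δ (3) it was 6 without centring, 0 in a fit to only the arrays compared and 1 to 3 without single arrays. In psocs (17) it was 8 to 20 without single arrays. In pRAD7 (16) it was 10 with a stricter filter that left 28 of the 39 genes, and 9 to 26 without single arrays. For the 60 min difference between pRAD7 rad23Δ and pRAD7 (8 genes) it was 5 without centring, 5 with quantile normalization and 3 to 11 without single arrays. For psocs rad23Δ minus psocs (0) it was 0 to 1. It was 1 without the untreated replicate 1 of psocs or the 60 min replicate 2 of psocs rad23Δ. The cause was not tested.

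The replicate numbers were not taken as pairs. The correlations of deviations from the group means between arrays of the same number were -0.34 to -0.08 in psocs rad23Δ, -0.13 to 0.49 in pRAD7 rad23Δ, 0.02 to 0.51 in psocs, where all 9 were positive, and -0.10 to 0.29 in pRAD7, so that they were not over 0.1 for every pair in any strain. With the replicate number as a block the 15 min counts were 6 in psocs rad23Δ, 4 in pRAD7 rad23Δ, 16 in psocs and 15 in pRAD7, and 9 genes were called in the difference between pRAD7 rad23Δ and pRAD7. No count moved by over 1.5 times.

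Over the alternatives other than leaving out 1 array, 244 of 251 counts stayed within 1.5 times, and 66 of 2907 calls of single genes were lost, as were 157 of 1732 without single arrays. Groups of 2 arrays, probe sets near the floor and shared probes limit single values.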
